A study of Mus musculus with 12 samples.

Results

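The S100 genes encode small calcium-binding proteins, and 8 of them are described here: S100a1, S100a4, S100a6, S100a8, S100a9, S100a10, S100a11 and S100a13. They were chosen by name from the 17 S100 genes of the mRNA table, with S100a4 picked because it was lowest in R98S relative to WT mRNA, so the members' mRNA differences are given as a description, with no p-value for a member, and their count of calls stands only beside that over all genes. All 8 are listed among the 41255 genes of the mRNA table, and 5 of them, S100a1, S100a6, S100a10, S100a11 and S100a13, are listed among the 10080 genes of the table of ribosome-protected fragments (RPF). The cells were Ba/F3, a mouse lymphoid line that grows in interleukin-3. They carried human RPL10 from a retroviral vector, either the WT form or the R98S mutant found in leukaemia, and in both groups an shRNA reduced the mouse Rpl10 of the cells. Each group consisted of 3 cultures grown from single cells, R98S clones 11, 13 and 35 and WT clones 28, 29 and 36, and each clone gave 1 RPF library and 1 mRNA library after cycloheximide at 100 μg/ml for 5 min. A clone is therefore the replicate, and differences between cultures started from single cells are part of the spread.

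S100 proteins bind calcium through paired EF-hand loops, mostly act as dimers, and on binding calcium expose a surface that grips partner proteins. S100A10 is the exception, since it does not bind calcium and stays in the open form, in which it is held by annexin A2. S100A8 and S100A9 pair as calprotectin, an abundant protein of neutrophils and monocytes, and S100A4 is known as a partner of nonmuscle myosin in motile cells.

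Sequencing yielded 20576796 to 22178094 recovered reads per R98S mRNA library and 6617457 to 23136595 per WT mRNA library, the lowest being WT clone 28, in which 1 read is worth 2.69 normalized counts. RPF libraries held 3477723 to 10883086 reads in R98S and 4611390 to 7162305 in WT. Of the defining B-lineage markers, Pax5 and Il7r were at 0 in all mRNA libraries, whereas Cd79a lay between 730 and 1357. Genes of chromosome 3, which carries every member, had a median shift of -0.31 on the log2 scale in mRNA of R98S clone 13 and -0.20 in R98S clone 35, against 0.09 in R98S clone 11 and 0.11 to 0.15 in the WT clones. The corresponding RPF shifts were -0.31, -0.22 and 0.12 in R98S clones 13, 35 and 11 and 0.13 to 0.20 in WT.

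The 8 members lie in 2 groups on chromosome 3 (mm10, GENCODE annotation). S100a1 (90511034 to 90514392, minus strand) and S100a13 (90514435 to 90524581, plus strand) are separated by 42 bp and are transcribed away from each other. They are followed by S100a4 (90603771 to 90606045, plus), S100a6 (90612882 to 90624181, plus), S100a8 (90668978 to 90670035, plus) and S100a9 (90692632 to 90695721, minus). S100a11 (93520488 to 93526287, plus) and S100a10 (93555080 to 93564643, plus) lie 2824766 bp beyond S100a9. Their annotated coding bases number 267 to 480 per gene, and the RPF counts leave out the first 15 and last 5 codons.

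The upstream sequences of the members are shown because members near 0 in R98S and members detected in all clones differ in their CG content there. This grouping was made from the mRNA values, and a relation of CG content to mRNA level was not tested. RefSeq promoters (GRCm38.p6) were matched for 7 members, S100a10 having no entry, and the 250 bases before the first transcribed base are printed for 2 members near 0 in R98S mRNA and for 2 members detected in all clones. Capitals mark every CG, which reads the same on both strands, and the TATAAA motif, which was searched on both strands as TATAAA and TTTATA.
S100a4, chr3:90603520-90603769, plus strand: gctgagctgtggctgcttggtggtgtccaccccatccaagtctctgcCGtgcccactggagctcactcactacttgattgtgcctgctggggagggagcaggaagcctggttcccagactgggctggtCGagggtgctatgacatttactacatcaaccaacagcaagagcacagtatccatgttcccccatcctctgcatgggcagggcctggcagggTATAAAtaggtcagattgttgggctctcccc
S100a6, chr3:90612644-90612893, plus strand: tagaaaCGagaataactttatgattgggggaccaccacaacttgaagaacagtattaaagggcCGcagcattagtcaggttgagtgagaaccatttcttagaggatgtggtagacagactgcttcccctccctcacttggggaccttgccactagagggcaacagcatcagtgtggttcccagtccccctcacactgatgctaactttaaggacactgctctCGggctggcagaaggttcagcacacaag
S100a13, chr3:90514185-90514434, plus strand: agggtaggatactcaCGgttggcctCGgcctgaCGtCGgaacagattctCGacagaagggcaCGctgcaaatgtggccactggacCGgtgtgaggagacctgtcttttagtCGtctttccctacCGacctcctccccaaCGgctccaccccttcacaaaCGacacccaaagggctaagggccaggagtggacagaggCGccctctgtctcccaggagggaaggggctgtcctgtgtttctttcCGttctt
S100a11, chr3:93520246-93520495, plus strand: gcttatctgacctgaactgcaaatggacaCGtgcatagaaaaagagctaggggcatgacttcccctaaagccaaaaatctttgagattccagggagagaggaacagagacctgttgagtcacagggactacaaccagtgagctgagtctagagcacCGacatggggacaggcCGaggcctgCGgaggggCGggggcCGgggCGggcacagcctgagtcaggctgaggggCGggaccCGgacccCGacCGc

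These windows held 2 CG in S100a4 and 3 in S100a6, and also 2 in each of S100a8 and S100a9. The windows of S100a13, S100a11 and S100a1 held 13, 11 and 8, against a median of 6 over 32851 promoter windows of that length. As many or more CG were present in 31.5%, 35.6% and 43.0% of all windows for these 3 genes, and in 81.2% for S100a4, S100a8 and S100a9 and 71.0% for S100a6. TATAAA began 31 bases before the first base of S100a4 and 30 bases before that of S100a8, on the transcribed-strand orientation, and was not found in the other 5 windows. At least 1 of its orientations occurs in 12.4% of all windows. The windows of S100a1 and S100a13 share 104 of their 250 bases on opposite strands, their first bases being 105 bp apart.

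S100a4 was the member with the widest gap between the genotypes in mRNA. Its normalized counts were 1.59, 4.09 and 4.30 in R98S clones 11, 13 and 35, which are 2, 5 and 5 reads, and 9436, 3278 and 1754 in WT clones 28, 29 and 36. Every R98S clone was near 0 and every WT clone above 1000. The WT mean was 1450-fold the R98S mean, with a log2 difference of -9.84 (SE 0.56, n = 3 clones per group) on log2(normalized count + 1), a scale that understates changes of low genes. Within WT, clone 28 was 5.38-fold above clone 36. In such bulk libraries, fewer cells with the transcript and less of it per cell cannot be told apart.

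S100a6, also called calcyclin and known to bind the Cacybp protein, was near 0 in R98S and spread widely over WT. R98S mRNA values were 0.794, 3.28 and 0, and WT values were 4431 in clone 28, 80.0 in clone 29 and 7.05 in clone 36. The lowest WT clone exceeded the highest R98S clone, but WT clones differed 628-fold among themselves. The log2 difference was -6.17 (SE 1.81), and it was -3.69 without WT clone 28 and -8.25 without WT clone 36, so its size rests on which WT clones are counted.

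The calprotectin genes S100a8 and S100a9 were not detected in R98S. No R98S mRNA library had a read of S100a9, whereas WT clones 28, 29 and 36 had 96.7, 0.825 and 6.27 normalized counts, or 36, 1 and 8 reads. S100a8 was at 18.8, 0 and 2.35 in the same WT clones, with 7, 0 and 3 reads, and at 0 in R98S. WT clone 28 held most of both genes, and WT clone 29 was almost as low as R98S. Against a floor of 3 reads over the R98S group, a limit of counting error only, S100a9 was at least 42.0-fold lower and S100a8 at least 8.56-fold lower in R98S. Both limits rest on WT clone 28, without which that of S100a9 was 4.31-fold and S100a8 had only 3 WT reads. S100a8 had a mean below the minimum of 10 normalized counts and was not tested.

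Markers of other cell types are given beside these members. The summed mRNA of 18 granulocyte and macrophage markers was 657 to 980 normalized counts in R98S and 998 to 1485 in WT. The gap came from Prtn3, a granule protease at 56.4, 111 and 108 in R98S and at 591, 417 and 210 in WT. Without Prtn3 the sums overlapped, at 601, 869.7 and 781 in R98S and 894, 581 and 806 in WT. Ncf1, an oxidase subunit and the largest of the list, was at 478, 719.9 and 607 in R98S and 585, 383 and 595 in WT. The WT clone with the highest value differed between markers. Ctsg, another granule protease, was at 0.794, 0.819 and 6.02 in R98S and at 134, 0.825 and 6.27 in WT. Mpo was at 0, 0 and 24.1 in R98S and at 34.9, 0 and 0.784 in WT. By contrast, WT clone 36 was highest for Lyz2 (0, 24.7 and 47.0 in WT), Lcn2 (0, 0.825 and 6.27), Ltf (2.69, 1.65 and 6.27) and Camp (0, 0.825 and 2.35). Of the 17 listed genes Csf3r was at 0 in every library and Ly6g, a neutrophil marker, had 1 read in all. Summed pro-B markers were higher in R98S (1352 to 1672) than in WT (896 to 1157), as were T cell markers (144 to 152 against 58.0 to 77.9), whereas mast cell and basophil markers overlapped (17921 to 34082 against 22635 to 30777). That last sum hid opposite differences. Gata2 was lower in R98S, at 15087, 15300 and 11145 against 26448, 20183 and 21802.5 in WT. Cpa3 was higher, at 644, 253 and 787 in R98S and 13.4, 174 and 54.9 in WT. The part of all these markers in the S100 values was not tested.

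The other S100 genes between S100a13 and S100a9 had few reads in any library, far fewer than S100a4 in WT. S100a5, which starts 2477 bp after the end of S100a4, was at 16.1, 4.95 and 0 in WT clones 28, 29 and 36 and at 0 in R98S. S100a2 was at 13.4, 5.77 and 1.57 in WT and at 0, 1.64 and 0.860 in R98S clones 11, 13 and 35. S100a14 was at 8.06, 1.65 and 1.57 in WT and reached 0.860 in 1 R98S clone, and S100a3 was at 5.37, 0.825 and 0 in WT and 0 in R98S. S100a16 had 1 read in WT clone 28 and 1 in R98S clone 11, and S100a7a had 2 reads, both in R98S clone 35. None of these genes reached the minimum for a test or is listed for RPF. Outside chromosome 3, S100b and S100g had at most 2 reads per mRNA library, and S100z had none.

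The 10 genes from S100a14 to S100a9, a block of 168866 bp, gave 24 reads in the 3 R98S mRNA libraries together. The same genes gave 5224, 4088 and 2262 reads in WT clones 28, 29 and 36. Nearly all of these WT reads were of S100a4 (3514, 3974 and 2238) and S100a6 (1650, 97 and 9). Since S100a4 was picked as lowest in R98S, the totals largely restate that choice. The highest normalized value was in WT clone 28 for 9 of the 10 genes, S100a7a being the exception. In this shallowest mRNA library 1 read is worth 2.69 normalized counts, so few reads suffice for the highest value. S100a16, S100a3, S100a14, S100a2, S100a5 and S100a8 had 1, 2, 3, 5, 6 and 7 reads there. Over all genes, WT clone 28 was highest for 23.9% of the 11344 genes tested in mRNA and 15.5% of the 9916 detected genes below the minimum. The block borders S100a13, which was expressed in all clones.

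**Figure D1:**
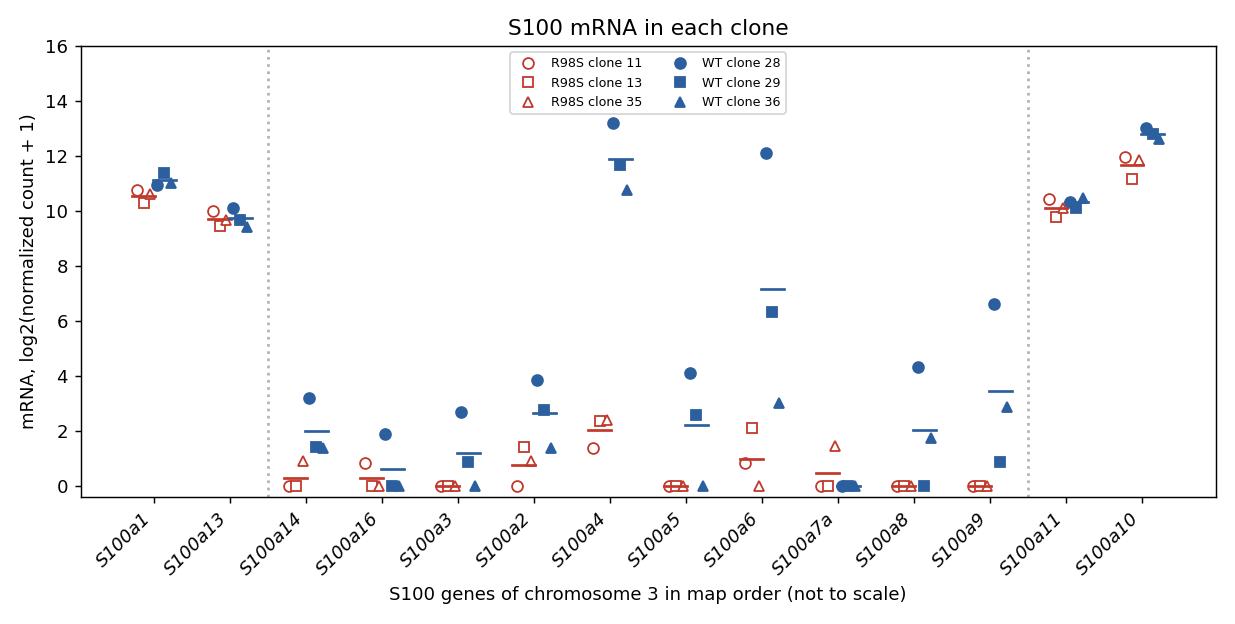
Normalized mRNA counts of the 14 S100 genes of chromosome 3, as log2(value + 1) on the vertical axis, in map order on the horizontal axis, with 1 point per clone (open, R98S; filled, WT) and bars at the group means. Between the dotted lines the R98S points lie at or below 4.30 normalized counts and WT clone 28 is highest in 9 of 10 genes, whereas the 4 genes outside the lines are expressed in every clone. S100a16, S100a3, S100a14, S100a2, S100a5 and S100a8 had at most 7 reads in any library.

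Beyond the S100 genes themselves, 5 genes within 100000 bp of a member had a mean mRNA value of at least 10: Ints3, Npr1, Ilf2, Snapin and Chtop, all on the S100a1 side. Their log2 mRNA differences ran from -0.55 to -0.03, and no adjusted p was below 0.192 in mRNA or 0.145 in RPF (limma, Benjamini-Hochberg adjustment over all genes tested). These neighbours were expressed in all 6 clones, like S100a1 and S100a13.

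Among the members found in all clones, S100a10 showed the clearest difference. Its mRNA level was 3989.9, 2299 and 3714 in R98S and 8365, 7037 and 6235 in WT. The groups did not overlap, and the R98S mean was 46.2% of the WT mean, a log2 difference of -1.14 (SE 0.23). S100a1, best known from heart and skeletal muscle, was at 1721, 1242 and 1557 in R98S and at 1966, 2631 and 2073 in WT. Its groups did not overlap either, with the R98S mean at 67.8% of WT and a log2 difference of -0.56 (SE 0.19), which was -0.30 when each chromosome's median was removed from each library.

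S100a11 and S100a13 had overlapping mRNA values. S100a11, a partner of annexins A1 and A6, was at 1367, 877 and 1106 in R98S and at 1292, 1112 and 1408 in WT (log2 difference -0.20, SE 0.21). S100a13, which takes part in the unconventional export of FGF1, was at 1028, 696 and 803 in R98S and at 1106, 812 and 686 in WT (log2 difference -0.03, SE 0.23). All 4 of these genes were lowest among the R98S clones in clone 13. On chromosome 3 this held for 61.0% of genes in mRNA, against 34.8% on the other chromosomes.

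In counts, 7 of the 8 members met the minimum in mRNA, and 2 of them, S100a4 and S100a10, were called at an adjusted p under 0.1 (limma), both lower in R98S, where 3.91% of all 11344 genes were called lower and 3.03% higher. All R98S values lay below all WT values for 5 of the 7, against 11.6% of all genes. Of these 5, S100a4, S100a6 and S100a9 had R98S means of 3.33, 1.36 and 0 normalized counts. They met the minimum through WT only, so a lower R98S level was nearly fixed in advance. Non-overlap of S100a9 rests on 1 read in WT clone 29. The median log2 difference of the 7 was -1.14, against 0.01 over all genes. Since the members were chosen on this contrast, these counts describe the choice.

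To compare levels of different genes roughly, counts were divided by kilobases of exon, counting every base in any annotated exon of the gene. The transcripts in use may be shorter than this length, so close ranks are uncertain. The order in WT mRNA was S100a4 (8258 ± 6965, SD, n = 3, normalized counts per kb), S100a10 (5951 ± 887), S100a1 (3203 ± 515), S100a11 (2486 ± 292), S100a13 (1215 ± 301), S100a6 (1102 ± 1853), S100a9 (66.3 ± 103) and S100a8 (10.2 ± 14.8). The WT clone range of S100a4 overlapped those of S100a10 and S100a1, and the ranges of S100a9 and S100a8 overlapped. That of S100a6, from 5.16 to 3241, overlapped those of all other members except S100a10. By contrast, S100a10, S100a1, S100a11 and S100a13 were separated from each other. In R98S the order began with S100a10 (2751 ± 749), S100a11 (2185 ± 480) and S100a1 (2171 ± 351), whose ranges overlapped, followed by S100a13 (1178 ± 237) and, far below, S100a4 (5.70 ± 2.59) and S100a6 (0.992 ± 1.25). The lead of S100a4 in WT rested on clone 28, since without it the WT means were 4308 for S100a4 and 5475 for S100a10.

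Among the 5 genes whose mRNA profile over the 6 libraries lay closest to that of S100a4, by Euclidean distance of mean-centred log2 values out of 11343 other genes, were Olfm3 (2.87), F13a1 (4.12), Fgf23 (4.22) and Gas7 (4.64). Olfm3, on chromosome 3 but far from the S100 genes (114904078 to 115125722), was at 0.794, 0.819 and 12.04 in R98S and at 1866, 1131 and 1546 in WT. F13a1, the A chain of coagulation factor XIII, was at 5.56, 36.9 and 260 in R98S and at 10511, 25839.8 and 12631 in WT. S100a6 ranked 30 by this distance.

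RPF libraries were not used to choose the members, but they come from the same clones as the mRNA libraries and are thus no independent test of the mRNA differences. Of the 5 members listed, S100a10 fell in R98S and was the only 1 called, against 4.62% of all 9580 genes called lower and 3.13% called higher. S100a10 RPF counts were 1398, 764 and 1253 in R98S and 2347, 2524 and 2409 in WT. The R98S mean was 46.9% of the WT mean, close to its mRNA share of 46.2%, with a log2 change of -1.14 (SE 0.23, adjusted p = 0.0223, limma). It was also called without any single clone (limma adjusted p 0.0245 to 0.0773) and with the chromosome median removed (log2 change -0.89, adjusted p = 0.0291).

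S100a11 RPF did not overlap between the groups either, at 316, 184 and 202 in R98S and 397, 343 and 349 in WT. The log2 difference of -0.67 (SE 0.23) was not called (limma adjusted p = 0.134), although it was called without R98S clone 11 (limma adjusted p = 0.0885), and it was -0.42 with the chromosome median removed. Non-overlap with R98S below WT was thus seen in 2 of 5 members, S100a10 and S100a11, against 12.8% of all genes.

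S100a1 RPF was at 448, 301 and 405 in R98S and at 425, 736 and 589 in WT, which overlapped (log2 difference -0.58, SE 0.24, limma adjusted p = 0.198). S100a13 RPF was at 863, 508 and 529 in R98S and at 481, 793 and 659 in WT (log2 difference -0.04, SE 0.25, limma adjusted p = 0.945). For S100a13 the group means were nearly equal and the clones of each group spread more widely than the groups differed.

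S100a6 footprints repeated the spread of its mRNA over the WT clones. RPF counts were 0.532, 2.51 and 1.68 in R98S, or 1, 3 and 1 reads, and 2656, 38.5 and 1.32 in WT clones 28, 29 and 36, or 2780, 37 and 1 reads. WT clone 36 lay inside the R98S range, so the groups overlapped. The log2 difference of -4.68 (SE 1.85) was not called by limma (adjusted p = 0.184). It was called by edgeR (adjusted p = 0.0473) and by limma without WT clone 36 (adjusted p = 0.0430), had no adjusted p from DESeq2, and could not be tested without WT clone 28 because its mean then fell below the minimum. S100a4, S100a8 and S100a9 are not among the genes listed for RPF, where each listed gene has at least 1 read in every library, and their footprints were not analysed here.

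**Figure D2:**
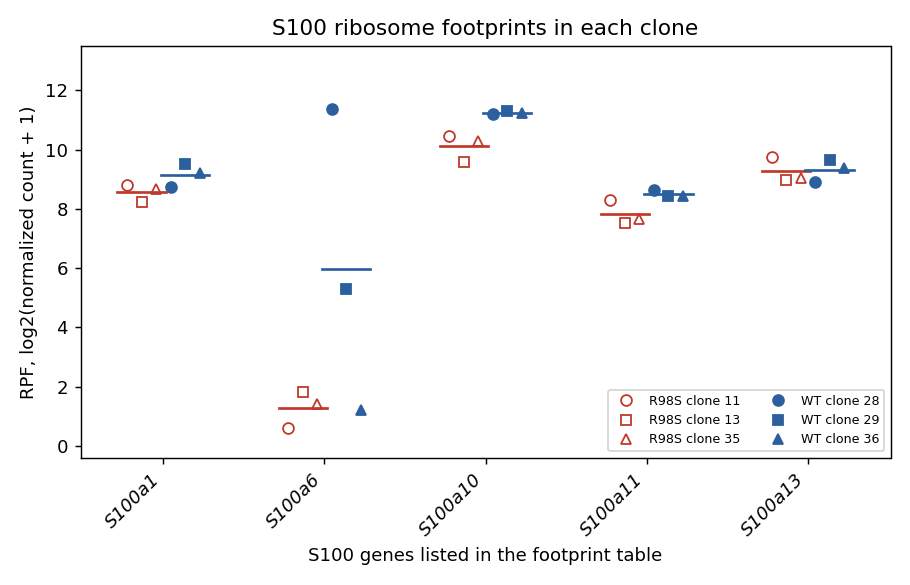
Normalized RPF counts of the 5 listed S100 genes, as log2(value + 1) on the vertical axis, with 1 point per clone (open, R98S; filled, WT) and bars at the group means. S100a10 and S100a11 are lower in every R98S clone than in any WT clone, and S100a6 ranges from 1.32 to 2656 normalized counts within WT.

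Translation efficiency (TE), the ratio of RPF to mRNA in the same clone, was compared for the 4 members whose values reached 10 in each of the 12 libraries. The ratio has no absolute scale, because the tables were normalized separately. None of the 4 was called by limma, DESeq2 or edgeR, against 0.0221% of 9043 genes called in either direction by limma, and 1 of the 4, S100a11, had an unadjusted p under 0.05, against 7.85% of all 9043 genes.

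The S100a10 TE ratio was 0.350, 0.332 and 0.337 in R98S and 0.281, 0.359 and 0.386 in WT. Its log2 TE difference was 0.01 (SE 0.19, 95% interval -0.42 to 0.43, limma adjusted p = 0.995), and the WT ratios spanned the R98S ratios. S100a1 gave ratios of 0.260, 0.242 and 0.260 in R98S and 0.216, 0.280 and 0.284 in WT (log2 difference -0.02, interval -0.45 to 0.41). S100a13 gave 0.839, 0.730 and 0.659 in R98S and 0.435, 0.977 and 0.960 in WT (log2 difference -0.01, interval -0.69 to 0.68). WT clone 28 stood apart from the other WT clones for S100a13, and its ratio was also the lowest in WT for S100a10 and S100a1.

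Among the members tested for TE, only S100a11 had values that did not overlap. Its ratios were 0.231, 0.210 and 0.182 in R98S and 0.308, 0.308 and 0.248 in WT. The log2 difference was -0.47 (SE 0.20, 95% interval -0.90 to -0.03), with an unadjusted p of 0.0385 and an adjusted p of 0.629 (limma). S100a6 was below the minimum in R98S and in WT clone 36 and was not tested. It had ratios of 0.599, 0.481 and 0.187 in WT clones 28, 29 and 36, the last from 1 RPF read and 9 mRNA reads. In R98S clones 11 and 13 its ratios were 0.670 and 0.768, from at most 4 reads per library.

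**Figure D3:**
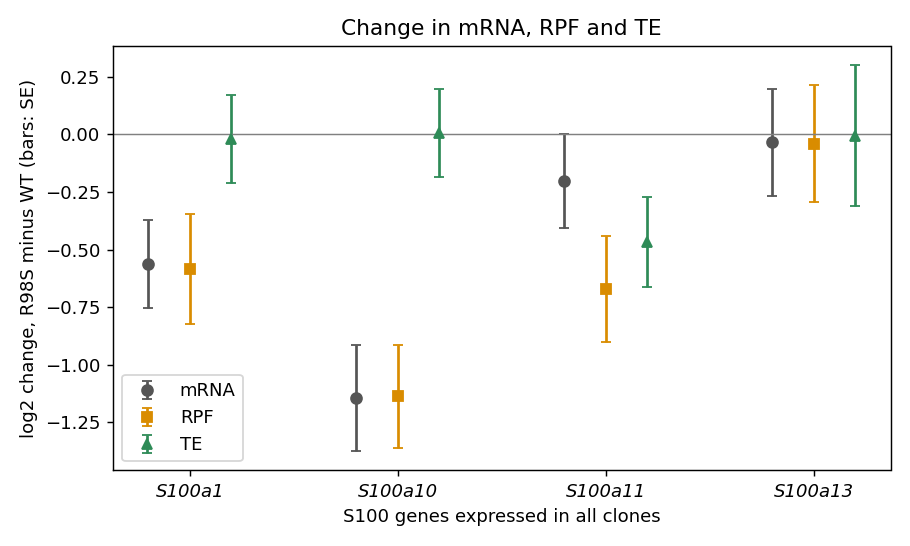
Log2 difference, R98S minus WT, on the vertical axis for mRNA, RPF and TE of the 4 S100 genes expressed in all clones, with bars of 1 SE (3 clones per group). S100a10 sits at -1.14 in mRNA and RPF with TE at 0.01, whereas for S100a11 RPF (-0.67) lies further below 0 than mRNA (-0.20).

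S100 proteins act through partners, and a list of 36 known binding partners and receptors was compared. The list was chosen with earlier results of these data known, so its counts and medians are a description and no test of the partners as a set. Of the 22 partners tested in RPF, 6 fell in R98S (limma), where 4.62% of all genes were called lower, and the list's median log2 difference was -0.28 against 0.01 over all genes. In mRNA, 4 of 24 fell, Anxa2, Ahnak, Tlr4 and Bsg, where 3.91% of all genes were called lower, with a list median of -0.05 against 0.01. The RPF count was 4 with chromosome medians removed, when Anxa5, a gene of chromosome 3, and Bsg were no longer called, and 3 without R98S clone 13, WT clone 28 or WT clone 36, and the mRNA count was 1, Ahnak, without R98S clone 11 or 13 or WT clone 29 or 36.

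Ahnak, a giant scaffold protein that binds the S100A10-annexin A2 complex, fell most. Its RPF counts were 9.04, 26.8 and 26.9 in R98S and 717, 628 and 536 in WT, a log2 change of -4.98 (SE 0.37, adjusted p = 0.00013, limma). Its mRNA was at 28.6, 32.8 and 38.7 in R98S and 639, 651 and 529 in WT (log2 change -4.15). Both calls were kept without any single clone.

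Annexin A2 (Anxa2), the membrane-binding partner of S100A10, fell to a similar extent as S100a10 itself. Anxa2 RPF was at 4555, 3591 and 5258 in R98S and at 9419, 10268 and 10049 in WT, a log2 change of -1.17 (SE 0.19, adjusted p = 0.0123, limma). Anxa2 mRNA levels were 7565, 5879 and 9184 in R98S and 11496, 14317 and 14239 in WT (log2 change -0.84, adjusted p = 0.0534, limma). The RPF call for Anxa2 was kept without any single clone, whereas its mRNA call was lost without R98S clone 11 or 13 or WT clone 29 or 36.

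Tlr4, a receptor for extracellular S100A8 and S100A9, had RPF counts of 28.7, 22.6 and 48.7 in R98S and 114, 80.2 and 127 in WT (log2 change -1.70, SE 0.33, adjusted p = 0.0219, limma), a call kept without any single clone. Ezr, which encodes the membrane-cytoskeleton linker ezrin, was at 1928, 2115 and 2484 in R98S and 6314, 3099 and 3739.8 in WT (log2 change -0.95, adjusted p = 0.0642, limma). The Ezr call was lost without R98S clone 11 or 13 or WT clone 28 or 36, and WT clone 28 held its highest value. The other 2 partners called in RPF were Anxa5 and Bsg.

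**Figure D4:**
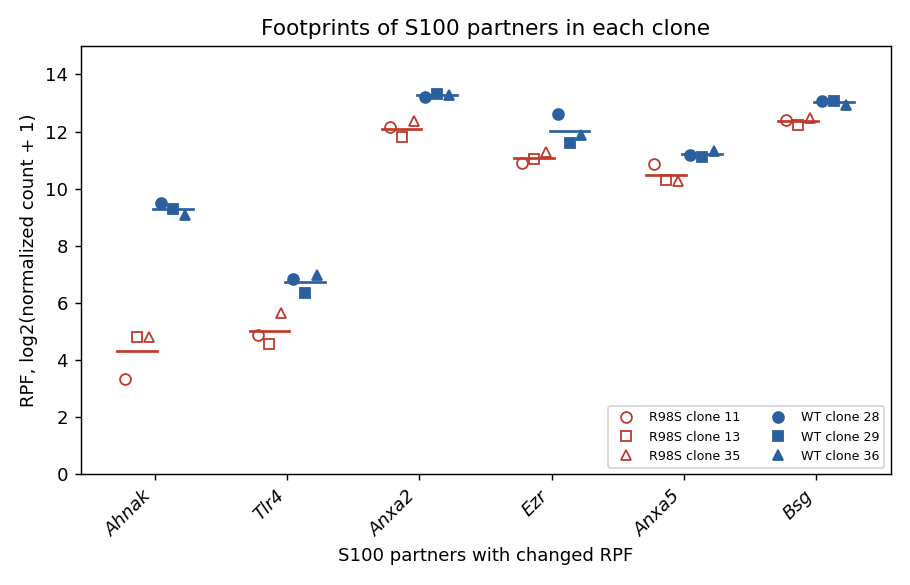
Normalized RPF counts of the 6 S100 partners called in RPF, as log2(value + 1) on the vertical axis, with 1 point per clone (open, R98S; filled, WT) and bars at the group means. All R98S points lie below all WT points for each gene, with the widest gap for Ahnak, at 9.04 to 26.9 against 536 to 717 normalized counts.

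A list of 38 other EF-hand calcium sensors and buffers, also chosen with earlier results of these data known, moved in both directions. In RPF, 4 of the 34 tested fell and 2 rose (limma), against 4.62% and 3.13% of all genes, with a list median of -0.05. The count was 4 in all with chromosome medians removed. The genes that fell were Capn2, the catalytic subunit of m-calpain (log2 change -1.01, adjusted p = 0.0362), Plcg2, a phospholipase of B-cell signalling (-0.72, adjusted p = 0.0985), and the myosin regulatory light chains Myl12a (-0.69, adjusted p = 0.0603) and Myl12b (-0.54, adjusted p = 0.0942). Those that rose were Rcn3, a calcium-binding protein of the endoplasmic reticulum (1.76, adjusted p = 0.0468), and Efhd2 (0.58, adjusted p = 0.0940). Capn2 and Rcn3 also changed in mRNA, in the same directions, as the only 2 of 35 called there. None of these RPF calls was kept under all omissions of single clones, and the RPF count was 0 without R98S clone 13 or WT clone 36, 1 without R98S clone 11 and 2 without WT clone 28. The mRNA count was 0 without R98S clone 11 or 13 and 1 without R98S clone 35 or WT clone 36.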

How the data were processed

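RPF and mRNA libraries of 6 Ba/F3 clones were analysed, grouped by the genotype in the labels. The members and gene lists were chosen with earlier results of these data known. Per the labels and the study's methods, the authors trimmed adapters of footprints and removed rRNA and tRNA reads with Bowtie2, aligned to mm10 with TopHat2 2.0.11, kept primary alignments of mapping quality of at least 10, and merged 3 technical replicates per footprint library. The signal values deposited by the authors are gene counts scaled with DESeq2 size factors, separately for the 2 tables. In every library 100.0% of the values above 0 were a whole number of single-read steps, and reads were recovered from them for the count tests.

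R98S and WT were compared with limma 3.58.1 (R 4.3.3, trend) on log2(value + 1) for genes with a mean of at least 10. TE was the log2 ratio of RPF to mRNA in each clone, for genes with at least 10 in all 12 libraries. P-values were Benjamini-Hochberg adjusted over all genes tested, at the threshold of 0.1. They set the difference between the genotypes against the spread between clones of a genotype, which also holds differences between single libraries. DESeq2 1.42.0 and edgeR 4.0.16 were run on recovered reads, with other pseudocounts, no filter, TMM scaling, chromosome medians removed, and each clone left out, as alternatives. The 2 libraries of a clone carry the same clone number, and their deviations from the genotype means correlated at 0.218 to 0.681, lowest in WT clone 28. The rule for named genes was all 8 members, other S100 genes above 0, list genes past the threshold in RPF or mRNA (at most 4 rises and 4 falls per list, by RPF), called neighbours within 100000 bp, and the 5 nearest profiles to S100a4. Values of some genes under these rules are not reported here. For each upstream window, RefSeq promoters of GRCm38.p6 were used.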

Additional observations from a re-analysis of the deposited data

How the results depend on the processing

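Of the members' counts of calls, that for mRNA (2 of 7) became 4 with DESeq2 and ranged from 2 to 3 when single clones were left out. It was 3 with edgeR, 3 with a pseudocount of 0.5 and 3 of 8 with no filter, S100a6 being added each time. The RPF count (1 of 5) became 2 with edgeR and ranged from 1 to 2 without single clones. For the partners the range without single clones was 1 to 4 in mRNA and 3 to 7 in RPF, and for the other EF-hand genes 0 to 3 and 0 to 6. S100a10 kept its RPF call in every alternative run. The values without WT clone 28 of S100a8, S100a9 and the levels per kb, and the marker sum without Prtn3, were added after the data were seen.

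Direction turned for differences near 0. With chromosome medians removed, S100a11 mRNA was 0.058, S100a13 mRNA 0.23 and S100a13 RPF 0.21, where by construction the downward shift of chromosome 3 is taken out. S100a13 TE was 0.017 with DESeq2 and 0.0094 with edgeR. Without single clones, S100a13 ranged from -0.19 to 0.15 in mRNA, -0.28 to 0.12 in RPF and -0.39 to 0.19 in TE, S100a10 TE from -0.13 to 0.10, and S100a1 TE from -0.15 to 0.048. The cause was not tested.

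TE was paired by clone. With no replicate block, that is without the pairing of the RPF and mRNA libraries of a clone, 0 of the 4 members were called, as with it. R98S and WT clones share no numbers and were not paired. S100a8 has too few reads for a test, and values of S100a6 and S100a9 rest largely on WT clone 28, the shallowest mRNA library.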
